A study of Mus musculus with 17 samples.

Results

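The collagen genes are the genes whose symbol consists of Col, a type number, the letter a and a chain number. This rule found 44 of the 28640 genes in the table. A gene was tested when its mean was at least 0.5 FPKM (reads per kilobase of exon, scaled to the library's total) in at least 1 group, which 25 of the 44 met: 7 of 11 fibrillar genes, 5 of 6 type IV, 5 of 6 type VI, 1 of 3 short-chain, 2 of 9 fibril-associated, 2 of 2 multiplexin, 2 of 4 transmembrane and 1 of 3 other genes. Of these 25, Col4a3 passed only through the control mean, Col13a1 only through the tumour mean, and Col23a1, Col27a1 and Col6a5 only through the means of the 2 tumour-bearing groups, so that a difference between groups was built into their selection. Just inside the limit lay Col4a3 at 0.54, Col13a1 at 0.551, Col28a1 at 0.628 and Col27a1 at 0.648 FPKM in their highest group. Just outside it lay Col20a1 at 0.493, Col11a2 at 0.296 and Col9a2 at 0.214 FPKM.

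The libraries were made from total RNA of mouse hearts. The control group (n = 5) carried no tumour, the tumour group (n = 6) carried a graft of CT-26, a mouse colon carcinoma line, and the tumour_swim group (n = 6) carried the same graft and was given swimming exercise. No group swam without a tumour, and the sources used here do not give strain, sex, age, tumour size or swimming dose. The series asks whether swimming alters the effect of the tumour on the heart. The labels do not say that each library is a separate animal, so the spread that p-values rest on may in part be technical. In whole-heart RNA, fewer cells of a type and less RNA per cell cannot be told apart.

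Collagens are secreted proteins of 3 chains wound into a triple helix, and they form the main scaffold outside cells. In the heart, fibroblasts make the fibrillar collagens I and III, which carry tension between muscle cells, while type IV collagen forms the sheet-like basement membrane around muscle cells and capillaries. Type VI collagen forms beaded filaments that link both. Newly made chains are hydroxylated and folded in the endoplasmic reticulum, trimmed after secretion, cross-linked by lysyl oxidases and broken down by matrix metalloproteinases.

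Sequencing depth, recovered from the step between low values, lay between 13.4 and 19.8 M reads (median 15.7 M). Relative to their group, long transcripts were lowest in control 1, control 4 and tumour_swim 1. There the Spearman correlations across genes between exon length and the library's deviation were -0.57, -0.61 and -0.57. Deviation was taken from the mean of the other libraries of the same group. The tumour group, which holds none of these 3, was not free of such a trend: it was -0.27 in tumour 1, -0.29 in tumour 2 and up to 0.31 in tumour 3. Among the other libraries it was -0.08 in control 5 and positive in the rest, up to 0.63 in control 3. The values in control and tumour_swim depend on the low libraries of the group, so they cannot be compared between groups. Collagen transcripts are long, with a median merged exon length of 7464 bases (4380 to 13022) in the tested members against 3946.5 bases in all tested genes. Of the tested genes with a known length 55.5% were shorter than the shortest tested collagen gene. Of the 25 tested members, 22 lay lower in control 1, 24 in control 4 and 23 in tumour_swim 1 than in every other library of the group outside these 3. Of all tested genes, 47.3% in control 1, 59.5% in control 4 and 72.0% in tumour_swim 1 lay below those libraries. The members' median log2 difference from those libraries was -0.93, -1.69 and -1.90, against -0.14, -0.33 and -0.67 over all genes. Calls and fold changes in tumour against control are therefore given with all 17 libraries and without these 3.

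**Figure D1:**
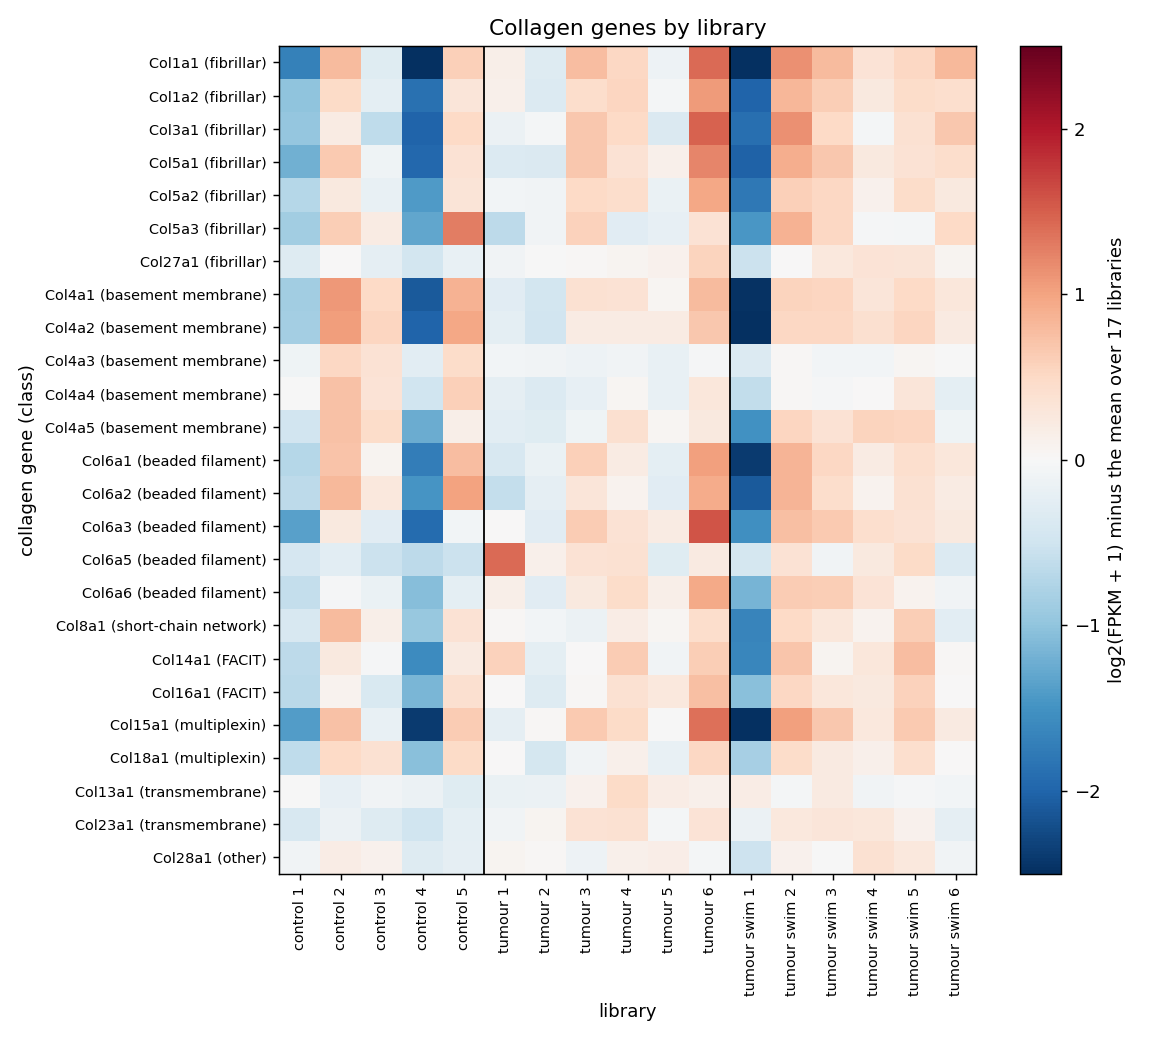
Level of the 25 tested collagen genes (rows, with their class) in each of the 17 libraries (columns), as log2(FPKM + 1) minus the gene's mean over all libraries. Colours are limited to 2.5 either side of 0 and black lines part the groups. Control 1, control 4 and tumour_swim 1 form 3 blue columns across nearly all genes.

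With all 17 libraries, 2 collagen genes rose in tumour against control hearts, Col6a5 and Col23a1, and none fell. Both passed the expression limit only through the means of the tumour-bearing groups, so a difference in this direction was built into their selection. In limma's two-sided test at a Benjamini-Hochberg adjusted p under 0.05, 5.14% of all 13709 tested genes were higher and 3.33% lower, and 8.47% passed in either direction. The members' share of 2 in 25 was thus near that of all genes. At an unadjusted p under 0.05 in limma, 6 members were higher and 1 was lower, beside 3779 of all 13709 genes in either direction. Of the 25 members 22 had a log2 fold change above 0, beside 63.7% of all genes, and the members' median was 0.35 beside 0.14. The number above 0 was 17 with median-of-ratios or quantile scaling, 14 with the length trend removed, and 14 of 26 without the 3 libraries. Median-of-ratios scaling moved the median of all genes to -0.02, with 944 genes higher (6.9%) and 964 lower (7.05%) in place of 704 and 457, and the members' median to 0.29.

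Without the 3 libraries the calls changed: no collagen gene rose, and Col4a2, Col4a3 and Col4a4 fell. Of these, Col4a3 passed the expression limit only through the control mean, so a difference in this direction was built into its selection. In that fit 7.12% of 13797 genes were higher and 5.42% lower, 12.5% in either direction, so the share of members called was again near that of all genes. At an unadjusted p under 0.05 in limma, 3 members were higher and 8 lower, beside 3886 of all 13797 genes in either direction. The median of the 26 members then tested was 0.02, beside 0.03 for all genes. Removing each library's length trend instead left Col4a3 and Col4a4 lower and none higher, where 8.87% of all genes were higher and 8.48% lower. Col4a3 and Col4a4 also fell with quantile normalization, where 2 members rose (7.82% of all genes higher and 7.44% lower), and with library weights, where 1 rose (8.08% and 4.07%). Leaving out the 3 libraries and removing the length trend together, an alternative chosen after seeing the data, called 1 member higher and 6 lower (8.52% and 8.99%).

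**Figure D2:**
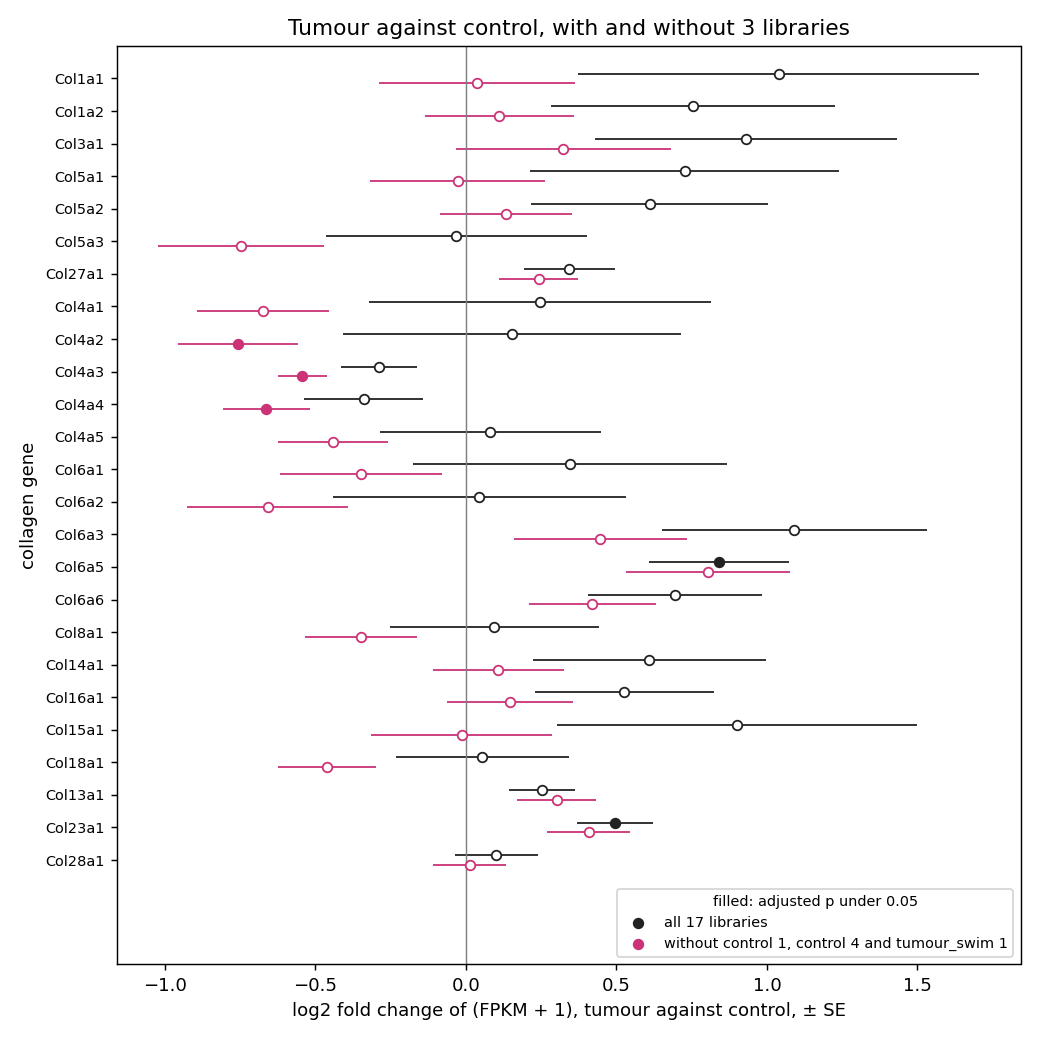
Log2 fold change of (FPKM + 1) ± SE in tumour against control hearts for the 25 tested collagen genes, with all 17 libraries (black) and without control 1, control 4 and tumour_swim 1 (pink). Filled points have a limma adjusted p under 0.05. Col6a5 and Col23a1 are filled in black, and Col4a2, Col4a3 and Col4a4 in pink.

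The fibrillar collagens were among the most abundant members, and none passed the test. Col1a1 (GRCm38 chromosome 11, + strand, 94936224 to 94953042), which with Col1a2 makes the chains of type I collagen, was 6.48, 40.5, 18.5, 2.94 and 35.1 FPKM in controls 1 to 5. In tumour hearts it was 18.2 at the lowest, 29.5 at the median and 62.8 FPKM at the highest, and in tumour_swim hearts 2.42, 36.9 and 52.1 FPKM. The low values came from controls 1 and 4 and tumour_swim 1, and the ranges of the 3 groups overlapped. The log2 fold change in tumour against control was 1.04 ± 0.67 (SE, limma adjusted p = 0.305) with all libraries and 0.04 ± 0.32 without the 3, a 95% interval of -0.65 to 0.73.

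Col1a2 (chromosome 6, + strand, 4504814 to 4541544) was 8.89, 26.7, 15.7, 4.45 and 23.4 FPKM in the controls, 14.5, 23.2 and 40.2 FPKM (lowest, median, highest) in tumour and 3.92, 25.6 and 34.2 FPKM in tumour_swim. Its log2 fold change in tumour against control was 0.75 ± 0.47 with all libraries and 0.11 ± 0.25 without the 3. Col3a1 (chromosome 1, + strand, 45311538 to 45349706), the single chain of type III collagen, was 20.2, 47.3, 25.8, 9.40 and 58.1 FPKM in the controls, 31.3, 48.7 and 116 FPKM in tumour and 10.3, 55.7 and 91.4 FPKM in tumour_swim. Like Col1a1, both genes were lowest in the 3 libraries low in long transcripts and highest in tumour 6. For Col3a1 the log2 fold change in tumour against control was 0.93 ± 0.50 (limma adjusted p = 0.231) and 0.32 ± 0.36 without the 3.

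The balance of type I to type III collagen bears on the stiffness of fibrils, so the ratio of Col1a1 to Col3a1 was tested over libraries. It was 0.321, 0.856, 0.718, 0.313 and 0.604 in the controls, 0.461 to 0.696 in tumour and 0.235 to 0.749 in tumour_swim hearts. On the log2 scale, with 1 FPKM added to each value, the mean was -0.86 ± 0.57 in control (SD, n = 5), -0.75 ± 0.21 in tumour (n = 6) and -0.80 ± 0.48 in tumour_swim (n = 6). In exact two-sided permutation tests, the differences of 0.11 for tumour against control, -0.05 for tumour_swim against tumour and 0.06 for tumour_swim against control each had an adjusted p of 0.896 over the 3 comparisons. Without the 3 libraries the differences turned sign, to -0.29, 0.14 and -0.15, with permutation adjusted p of 0.351, 0.351 and 0.357. None of these tests passed, and with 3 controls against 6 tumour hearts the difference of -0.29 was larger than the SDs of 0.25 and 0.21 with an unadjusted p of 0.119.

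Col5a1 and Col5a2, whose type V collagen starts the assembly of fibrils, lay at lower levels. Col5a1 was 2.54, 11.9, 6.51, 1.08 and 9.44 FPKM in the controls, 5.31, 8.63 and 18.0 FPKM (lowest, median, highest) in tumour and 0.990, 9.73 and 14.3 FPKM in tumour_swim. Col5a2 was 3.27, 7.30, 5.19, 1.63 and 7.80 FPKM in the controls, 5.22, 7.10 and 12.7 FPKM in tumour and 1.04, 7.97 and 9.53 FPKM in tumour_swim. The groups overlapped for both. Tumour against control gave log2 fold changes of 0.73 ± 0.51 for Col5a1 and 0.61 ± 0.39 for Col5a2, and -0.03 ± 0.29 and 0.13 ± 0.22 without the 3 libraries.

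Col27a1, a fibrillar collagen best known from cartilage, was 0.212, 0.513, 0.299, 0.102 and 0.332 FPKM in the controls, 0.423, 0.565 and 1.22 FPKM in tumour and 0.0461, 0.700 and 0.926 FPKM in tumour_swim. Its log2 fold change in tumour against control was 0.34 ± 0.15 (limma adjusted p = 0.151), passed the test when tumour_swim 1 alone was left out (adjusted p = 0.0386) was 0.24 ± 0.13 without the 3 libraries, and turned to -0.04 when the length trend was removed. Over all alternatives its adjusted p ran from 0.0386 to 0.872. Col5a3, another chain of type V collagen, had means of 2.93 ± 2.67 FPKM in control (SD, n = 5), 2.26 ± 1.03 in tumour (n = 6) and 2.78 ± 1.64 in tumour_swim (n = 6). Its log2 fold change in tumour against control was -0.03 ± 0.43, and without the 3 libraries -0.75 ± 0.28 (limma adjusted p = 0.0863, unadjusted 0.0156), with means of 4.52 ± 2.15 FPKM in 3 controls and 2.26 ± 1.03 in tumour. The other 4 fibrillar genes, Col2a1, Col11a1, Col11a2 and Col24a1, stayed below the limit, and Col2a1, the main collagen of cartilage, had no more than 3 reads in any library.

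Type IV collagen gave the most abundant member and the ones that fell without the 3 libraries. The 6 genes lie as 3 head-to-head pairs that share a promoter region, and Col4a1 and Col4a2 make up the basement membrane network found in nearly every tissue. Col4a1 (chromosome 8, - strand, 11198423 to 11312826) was 28.6, 113, 75.6, 11.5 and 97.5 FPKM in the controls, 38.6, 61.7 and 92.3 FPKM (lowest, median, highest) in tumour and 8.82, 70.3 and 78.0 FPKM in tumour_swim. Col4a2 (chromosome 8, + strand, 11312805 to 11449287) was 22.1, 84.8, 59.6, 9.40 and 80.1 FPKM in the controls, 28.7, 46.9 and 65.2 FPKM in tumour and 6.38, 55.8 and 59.2 FPKM in tumour_swim. Controls 2 and 5 were the highest of the 17 libraries for both genes, and controls 1 and 4 and tumour_swim 1 the lowest, so the control range enclosed the tumour range. The 2 genes overlap at their starts, and since strandedness is not given, reads there cannot be assigned to one or the other.

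The promoter windows of this pair, from 250 bases before to 50 bases after each annotated start, share 78 bases. They are shown because Col4a1 and Col4a2 kept nearly the same ratio in every library. The sequences are from RefSeq on build GRCm38.p6, at chr8:11312777-11313076 (minus strand) for Col4a1 and chr8:11312555-11312854 (plus strand) for Col4a2, written 5′ to 3′ on the gene's strand. Capitals mark 3 motifs searched on both strands: the GC box GGGCGG, the CCAAT box and the TATA box TATAAA.
Col4a1: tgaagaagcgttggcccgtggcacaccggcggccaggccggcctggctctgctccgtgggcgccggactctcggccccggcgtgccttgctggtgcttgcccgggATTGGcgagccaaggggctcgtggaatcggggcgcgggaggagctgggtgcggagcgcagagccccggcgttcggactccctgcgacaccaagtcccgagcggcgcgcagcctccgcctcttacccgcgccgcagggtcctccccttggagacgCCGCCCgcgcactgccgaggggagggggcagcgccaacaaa
Col4a2: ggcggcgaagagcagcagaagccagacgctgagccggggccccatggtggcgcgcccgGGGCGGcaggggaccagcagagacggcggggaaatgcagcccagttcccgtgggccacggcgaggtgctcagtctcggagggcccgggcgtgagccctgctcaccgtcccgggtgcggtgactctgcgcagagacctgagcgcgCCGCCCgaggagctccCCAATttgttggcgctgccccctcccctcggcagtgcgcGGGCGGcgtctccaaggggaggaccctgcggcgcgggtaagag
The Col4a1 window held 1 GC box and 1 CCAAT box, and the Col4a2 window 3 GC boxes and 1 CCAAT box. Over all 32851 windows of the same length 35.7% held a GC box, 37.4% a CCAAT box and 13.6% a TATA box. Of the 38 windows of the 35 collagen genes found in the table, 60.5% held a GC box, 34.2% a CCAAT box and 13.2% a TATA box. A match describes these letters and not a binding site.

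The ratio of Col4a2 to Col4a1 within a library stayed between 0.681 and 0.854 across all 17 libraries, including the 3 low in long transcripts. With all libraries, tumour against control gave log2 fold changes of 0.25 ± 0.57 (SE) for Col4a1 and 0.15 ± 0.56 for Col4a2. In the other 14 libraries they were -0.67 ± 0.22 (limma adjusted p = 0.0552) and -0.76 ± 0.20 (adjusted p = 0.0218), so that Col4a2 passed and Col4a1 did not. With fewer libraries the means were 74.8 ± 13.4 FPKM of Col4a2 in control (SD, n = 3) and 44.8 ± 12.7 in tumour (n = 6). Over all alternatives the adjusted p ran from 0.0137 to 0.968 for Col4a1 and from 0.00421 to 0.974 for Col4a2, and both turned sign in several of them.

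Col4a3 and Col4a4, whose chains join that of Col4a5 in the basement membrane of the kidney glomerulus, were low in these hearts but lay lower in both tumour-bearing groups. Col4a3 (chromosome 1, + strand, 82586921 to 82722059) was 0.219, 0.892, 0.693, 0.0907 and 0.808 FPKM in the controls, 0.156, 0.242 and 0.292 FPKM (lowest, median, highest) in tumour and 0.0376, 0.282 and 0.356 FPKM in tumour_swim. These values rest on 15 to 134 reads in control, 30 to 49 in tumour and 5 to 55 in tumour_swim libraries. Controls 2, 3 and 5 lay above all 12 tumour-bearing libraries, while controls 1 and 4 lay within their range.

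Col4a4 (chromosome 1, - strand, 82448423 to 82586849) was 0.682, 1.83, 1.15, 0.210 and 1.55 FPKM in the controls, 0.337, 0.484 and 1.06 FPKM in tumour and 0.106, 0.695 and 1.09 FPKM in tumour_swim. Again controls 2, 3 and 5 lay above all tumour-bearing libraries. With all 17 libraries neither gene passed in tumour against control (log2 fold changes -0.29 ± 0.13, limma adjusted p = 0.153, and -0.34 ± 0.20, adjusted p = 0.264). When the 3 libraries were left out, Col4a3 fell by 0.54 ± 0.08 on the log2 scale (adjusted p = 0.000826) and Col4a4 fell by 0.66 ± 0.14 (adjusted p = 0.00814). Both also fell with the length trend removed, by 0.62 ± 0.14 and by 0.69 ± 0.13, with all 17 libraries in the fit. Neither changed sign in any alternative, and the adjusted p ran from 0.000826 to 0.295 for Col4a3 and from 0.00111 to 0.442 for Col4a4. In FPKM, the means without the 3 libraries were 0.797 ± 0.10 in control (SD, n = 3) and 0.232 ± 0.0455 in tumour (n = 6) for Col4a3, and 1.51 ± 0.343 and 0.594 ± 0.266 for Col4a4.

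The annotated starts of Col4a3 and Col4a4 lie 71 bases apart on opposite strands, so the region between them is shared. The window of Col4a4, at chr1:82586800-82587099 (minus strand, RefSeq, GRCm38.p6), is shown as the region between these starts.
Col4a4: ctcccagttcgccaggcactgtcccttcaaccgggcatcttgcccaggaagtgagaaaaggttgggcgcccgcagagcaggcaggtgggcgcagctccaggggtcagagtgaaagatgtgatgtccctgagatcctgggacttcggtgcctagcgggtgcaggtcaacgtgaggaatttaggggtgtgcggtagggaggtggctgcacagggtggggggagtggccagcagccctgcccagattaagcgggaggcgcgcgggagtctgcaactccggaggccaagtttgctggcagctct
It held none of the 3 motifs, with 63.3% G and C, which says only that these letters are not in this window.

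**Figure D3:**
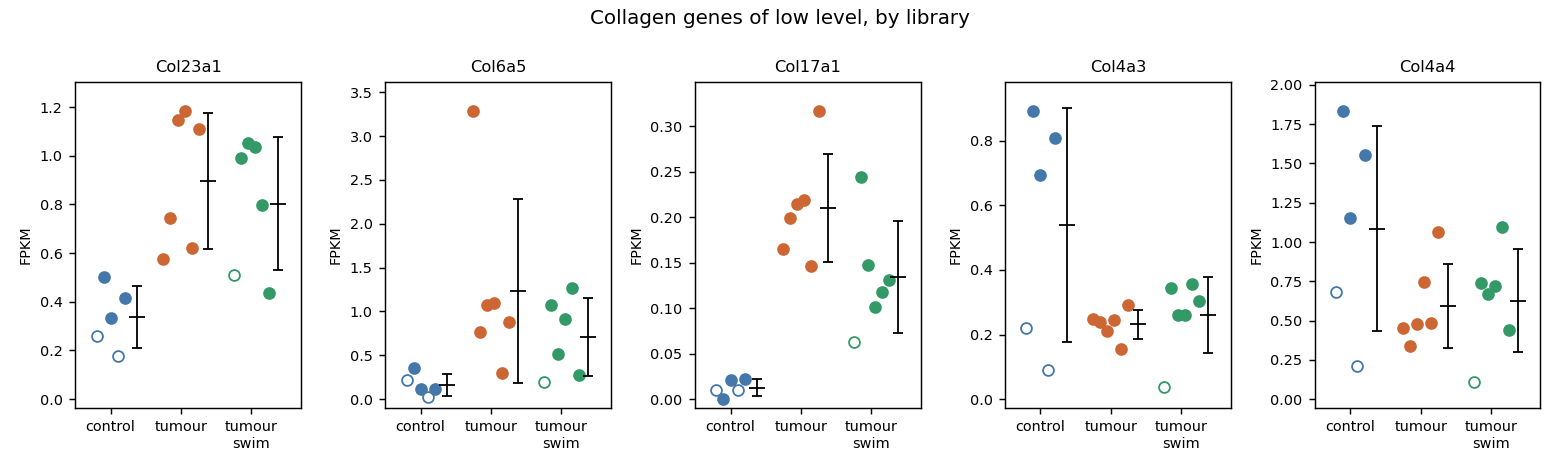
FPKM of 5 collagen genes of low level in each library, by group. Open symbols are control 1, control 4 and tumour_swim 1, and bars beside the points give the mean ± SD. The tumour values of Col23a1 and Col17a1 lie above every control, and controls 2, 3 and 5 lie above the tumour values of Col4a3 and Col4a4.

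Col4a5 (chromosome X), whose chain joins those of Col4a3 and Col4a4, had means of 6.53 ± 3.53 FPKM in control (SD, n = 5), 6.26 ± 1.43 in tumour (n = 6) and 7.25 ± 3.19 in tumour_swim (n = 6). Its log2 fold change in tumour against control was 0.08 ± 0.37. Without the 3 libraries the means were 8.84 ± 1.96 FPKM in control and 6.26 ± 1.43 in tumour, and the log2 fold change was -0.44 ± 0.18 (limma adjusted p = 0.124, unadjusted 0.0283). With the length trend removed as well it passed, at -0.49 (adjusted p = 0.0305), in the alternative chosen after seeing the data. Its neighbour Col4a6 stayed below the limit, with no library above 0.0532 FPKM.

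In the type VI family, with all libraries, the abundant chains did not pass the test in tumour against control while the rare chain of Col6a5 rose. The tumour and control libraries overlapped for all of them. Col6a1, Col6a2 and Col6a3 together make the beaded filament, and Col6a5 and Col6a6 encode chains that can take the place of Col6a3. Col6a1 (chromosome 10, - strand, 76708792 to 76726168) was 12.6, 36.0, 22.6, 5.82 and 37.4 FPKM in the controls, 16.0, 22.0 and 44.9 FPKM (lowest, median, highest) in tumour and 3.29, 27.8 and 39.5 FPKM in tumour_swim. Col6a2 was 5.52, 17.2, 11.3, 2.71 and 19.7 FPKM in the controls, 5.80, 8.88 and 18.6 FPKM in tumour and 1.42, 11.6 and 17.5 FPKM in tumour_swim. For both the controls spanned nearly the whole range of the tumour-bearing libraries. Tumour against control gave 0.35 ± 0.52 (SE, log2) for Col6a1 and 0.05 ± 0.49 for Col6a2, and without the 3 libraries -0.35 ± 0.27 and -0.66 ± 0.27 (limma adjusted p = 0.423 and 0.118).

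Col6a3 (chromosome 1, - strand, 90765923 to 90843971) was 1.39, 6.27, 4.05, 0.609 and 4.87 FPKM in the controls, 4.04, 6.43 and 17.3 FPKM in tumour and 1.11, 7.0 and 9.34 FPKM in tumour_swim. The tumour values began just under the third highest control. Its log2 fold change of 1.09 ± 0.44 in tumour against control was the highest of any tested collagen gene on the log2(FPKM + 1) scale, with a limma adjusted p of 0.125. That scale understates fold changes of low genes. With 0.1 FPKM added in place of 1, the highest was that of Col6a5, at 2.16. Col6a3 passed only when tumour_swim 1 was left out (limma adjusted p = 0.0337), and without the 3 libraries its log2 fold change was 0.45 ± 0.29 (adjusted p = 0.332). Over all alternatives the adjusted p ran from 0.0337 to 0.350. Col6a6 (1.37 ± 0.615 FPKM in control, 2.84 ± 1.14 in tumour and 2.47 ± 1.27 in tumour_swim, SD) had a log2 fold change of 0.69 ± 0.29 (limma adjusted p = 0.135), which passed without tumour_swim 1 (adjusted p = 0.0260) and was 0.42 ± 0.21 without the 3 libraries, and its adjusted p ran up to 0.346. When tumour_swim 1 was left out of the shared fit, 19.2% of all genes were higher in tumour than in control hearts and 7.43% were lower.

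Col6a5 (chromosome 9, - strand, 105856078 to 105960643) was 0.213, 0.355, 0.115, 0.0256 and 0.113 FPKM in the controls, which is 4 to 50 reads. In tumour hearts it was 0.302 at the lowest, 0.976 at the median and 3.28 FPKM at the highest, or 55 to 564 reads, and in tumour_swim hearts 0.199, 0.713 and 1.27 FPKM. Tumour 1 lay far above the other 5 tumour hearts, and only tumour 5 lay within the control range. Col6a5 rose in tumour against control by 0.84 ± 0.23 on the log2 scale (SE, adjusted p = 0.0333 in limma). Leaving out any of control 1, control 4, control 5, tumour 3, tumour 4 and tumour 6 ended the call (log2 fold changes 0.80 to 0.87, adjusted p 0.0531 to 0.0849), as did leaving out the 3 libraries (0.80 ± 0.27, adjusted p = 0.0649). Over all alternatives its log2 fold change stayed above 0, from 0.52 to 2.16, and its adjusted p ran from 0.0134 to 0.173.

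Its promoter window, at chr9:105960594-105960893 (minus strand), is shown because Col6a5 was 1 of the 2 members that rose.
Col6a5: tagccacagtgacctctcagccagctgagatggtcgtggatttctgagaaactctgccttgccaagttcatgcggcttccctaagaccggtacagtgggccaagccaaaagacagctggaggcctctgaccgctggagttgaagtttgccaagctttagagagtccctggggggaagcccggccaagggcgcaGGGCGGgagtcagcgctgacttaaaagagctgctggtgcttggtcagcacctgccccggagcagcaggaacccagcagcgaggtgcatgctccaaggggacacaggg
The window held 1 GC box and neither a CCAAT nor a TATA box. Col6a4, the sixth gene of the family, had no library above 0.0485 FPKM.

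Col23a1, a transmembrane collagen whose outer part can be shed from the cell surface, was the other member that rose. Col23a1 (chromosome 11, + strand, 51289920 to 51583918) was 0.260, 0.501, 0.334, 0.179 and 0.417 FPKM in the controls, 0.576, 0.926 and 1.18 FPKM (lowest, median, highest) in tumour and 0.435, 0.894 and 1.05 FPKM in tumour_swim. These are 17 to 43 reads in control, 60 to 134 in tumour and 38 to 99 in tumour_swim libraries. With all libraries it was the only tested member whose tumour and control libraries did not overlap. Without the 3 it was the only one higher without overlap, while Col4a3 and Col4a4 were lower without overlap. Col23a1 passed the expression limit only through the tumour-bearing means, so a difference in this direction was built into its selection. Of all genes, 7.59% had non-overlapping groups with tumour higher and 2.82% with tumour lower with all libraries, and 8.86% and 6.19% without the 3.

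The log2 fold change of Col23a1 in tumour against control was 0.50 ± 0.13 (SE, limma adjusted p = 0.0228). The call ended on leaving out any of control 1, control 4, tumour 3, tumour 4 and tumour 6 (0.45 to 0.47, adjusted p 0.0538 to 0.0714), without the 3 libraries (0.41 ± 0.14, adjusted p = 0.0653) and with the length trend removed (0.27 ± 0.14, adjusted p = 0.176). In all alternatives it stayed above 0, from 0.27 to 1.19, and the adjusted p ran from 0.00792 to 0.176. Its promoter window, at chr11:51289670-51289969 (plus strand), shown because the gene rose, held 1 GC box.
Col23a1: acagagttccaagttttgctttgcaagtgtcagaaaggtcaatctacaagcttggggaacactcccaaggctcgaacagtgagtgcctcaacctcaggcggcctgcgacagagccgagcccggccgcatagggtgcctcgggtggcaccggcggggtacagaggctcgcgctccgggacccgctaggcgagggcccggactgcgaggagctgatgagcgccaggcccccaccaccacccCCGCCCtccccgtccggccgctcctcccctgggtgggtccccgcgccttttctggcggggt

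Col17a1, the transmembrane collagen of hemidesmosomes in skin, lay below the expression limit but had a marked difference in read number. It had 1, 0, 2, 1 and 2 reads in the controls, 18, 21, 19, 26, 17 and 32 reads in the tumour hearts and 5, 23, 14, 10, 11 and 12 reads in the tumour_swim hearts. No control reached the count of any tumour-bearing library, and a count of 0 in control 2 allows up to 3 reads, or 0.0332 FPKM. In FPKM the means were 0.0126 ± 0.00923 in control (SD, n = 5), 0.210 ± 0.0594 in tumour (n = 6) and 0.134 ± 0.0614 in tumour_swim (n = 6).

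With no expression limit, over all 28640 genes, Col17a1 rose in tumour against control (log2 fold change 0.26 ± 0.04 on the log2(FPKM + 1) scale, limma adjusted p = 0.00209), where 1.68% of genes were higher and 1.19% lower. In tumour_swim against control its log2 fold change was 0.16 ± 0.04 (adjusted p = 0.0937). Col23a1 also rose in that fit, and no other of the 44 genes did. Col17a1 was singled out after its values were seen.
Its promoter window, at chr19:47691993-47692292 (minus strand), is shown because it differs in base composition from the others, with 46.3% G and C, 2 TATA boxes, 1 CCAAT box and no GC box.
Col17a1: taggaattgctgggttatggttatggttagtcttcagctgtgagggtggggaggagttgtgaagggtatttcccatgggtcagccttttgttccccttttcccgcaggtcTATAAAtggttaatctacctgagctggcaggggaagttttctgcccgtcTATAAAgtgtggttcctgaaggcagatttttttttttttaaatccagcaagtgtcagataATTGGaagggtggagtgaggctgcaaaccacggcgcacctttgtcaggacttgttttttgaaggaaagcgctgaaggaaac

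Among the remaining surface collagens, Col13a1, a transmembrane collagen of the neuromuscular junction, had means of 0.291 ± 0.0986 FPKM in control (SD, n = 5), 0.551 ± 0.259 in tumour (n = 6) and 0.468 ± 0.144 in tumour_swim (n = 6), and its groups overlapped. The log2 fold change of Col13a1 in tumour against control was 0.25 ± 0.11 (limma adjusted p = 0.151) with all libraries and 0.30 ± 0.13 (adjusted p = 0.143) without the 3. Col25a1 stayed below 0.0589 FPKM in nearly every library and reached that value in one.

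The collagens that sit on fibrils or bridge membranes and fibrils did not pass the test in tumour against control. Col14a1, a FACIT (fibril-associated collagen with interrupted triple helices), was 2.39, 5.27, 4.21, 0.791 and 5.22 FPKM in the controls, 3.49, 5.66 and 7.25 FPKM (lowest, median, highest) in tumour and 0.716, 5.01 and 8.08 FPKM in tumour_swim. Col15a1, a multiplexin of the zone next to basement membranes, was 5.97, 29.5, 15.3, 2.53 and 27.5 FPKM in the controls, 14.7, 21.1 and 46.7 FPKM in tumour and 2.25, 24.5 and 36.4 FPKM in tumour_swim. Their log2 fold changes were 0.61 ± 0.39 and 0.90 ± 0.60 with all libraries and 0.11 ± 0.22 and -0.01 ± 0.30 without the 3.

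Col18a1, the multiplexin that gives rise to endostatin, was 0.965, 3.31, 2.97, 0.481 and 3.25 FPKM in the controls, 1.25, 1.96 and 3.37 FPKM in tumour and 0.715, 2.44 and 3.18 FPKM in tumour_swim. Col8a1, a short-chain collagen of vessel walls, was 3.88, 10.1, 6.16, 2.35 and 7.29 FPKM in the controls, 4.83, 5.65 and 7.78 FPKM in tumour and 1.05, 6.38 and 8.92 FPKM in tumour_swim. With all libraries the log2 fold changes in tumour against control were 0.05 ± 0.29 for Col18a1 and 0.09 ± 0.35 for Col8a1. Controls 2, 3 and 5 lay at 2.97 to 3.31 FPKM of Col18a1, above 5 of the 6 tumour hearts, and without the 3 libraries its log2 fold change was -0.46 ± 0.16 (limma adjusted p = 0.0739, unadjusted 0.0119). For Col8a1 it was then -0.35 ± 0.18 (adjusted p = 0.231). With the length trend removed as well, Col18a1 passed, at -0.51 (adjusted p = 0.0212), and Col8a1 did not. Col16a1, another FACIT, had means of 1.78 ± 1.14, 2.84 ± 1.01 and 2.74 ± 1.20 FPKM (SD) in control, tumour and tumour_swim, and Col28a1, known from peripheral nerve, 0.517 ± 0.224, 0.617 ± 0.118 and 0.628 ± 0.329 FPKM. Tumour against control gave log2 fold changes of 0.53 ± 0.30 for Col16a1 and 0.10 ± 0.14 for Col28a1 with all libraries, and 0.15 ± 0.21 and 0.012 ± 0.12 without the 3. Of the genes of these classes below the limit, Col10a1 and Col9a1 had no more than 1 read in any library. Col20a1, just under the limit, had means of 0.278, 0.493 and 0.487 FPKM in control, tumour and tumour_swim, and Col9a2 0.214, 0.0529 and 0.147 FPKM. The group means of Col7a1, Col8a2, Col9a3, Col12a1, Col19a1, Col22a1 and Col26a1 were at most 0.182 FPKM.

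Since 3 libraries lay low for most collagen genes at once, ratios between chains of the same library were compared. These ratios were chosen after the values were seen and are given as a description with no test, and the chains differ in length, so a difference that scales with length need not cancel. The ratio of Col4a1 to Col1a1 was 2.78 to 4.41 in control, 1.47 to 2.63 in tumour and 1.5 to 3.64 in tumour_swim, so every control lay above every tumour heart. Only tumour_swim 1, at 3.64, reached the control range among the tumour-bearing libraries. Relative to Col4a1, Col4a3 was 0.00765 to 0.00916 in control, 0.00284 to 0.00621 in tumour and 0.00335 to 0.00474 in tumour_swim, and Col4a4 was 0.0152 to 0.0238, 0.00694 to 0.0115 and 0.00680 to 0.0146. For these 2 genes all 5 controls, the 2 low in long transcripts included, lay above all 12 tumour-bearing libraries.

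The ratio of Col6a3 to Col6a1 was 0.105 to 0.179 in control, 0.210 to 0.386 in tumour and 0.235 to 0.338 in tumour_swim, with every tumour-bearing library above every control. That of Col6a2 to Col6a1 was 0.437 to 0.525 in control, 0.356 to 0.414 in tumour and 0.401 to 0.442 in tumour_swim, so the controls lay above the tumour hearts and only tumour_swim 2 reached the lowest control. Relative to Col4a1, 4 of 24 members were higher without overlap in tumour than in control (Col15a1, Col1a1, Col5a1 and Col6a3), where 2.22% of all genes were, and 2 were lower (Col4a3 and Col4a4), where 0.314% were. Relative to Col1a1, 4 of 24 were lower (Col18a1, Col4a1, Col4a3 and Col4a4, beside 0.824% of all genes) and none higher (0.182%). The pair of Col4a1 and Col1a1 enters both counts. In controls 1 and 4 the members' median log2 difference was -0.93 and -1.69, against -0.14 and -0.33 over all genes. The share of all genes is therefore not a like background for counts of ratios to a collagen gene, here or below.

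Relative to Col6a1, Col15a1, Col3a1 and Col6a3 were higher without overlap in tumour than in control (1.5% of all genes) and Col4a3, Col4a4 and Col6a2 lower (0.562%). In tumour_swim against control, which shares the control libraries, the genes without overlap relative to Col4a1 were Col5a1 and Col6a3 (higher, 0.934% of all genes) and Col4a3 and Col4a4 (lower, 0.109%). Relative to Col6a1 they were Col1a2 and Col6a3 (higher, 0.671%) and Col4a3 (lower, 0.168%), and relative to Col1a1 they were Col4a3, Col4a4 and Col5a3 (lower, 0.233%).

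**Figure D4:**
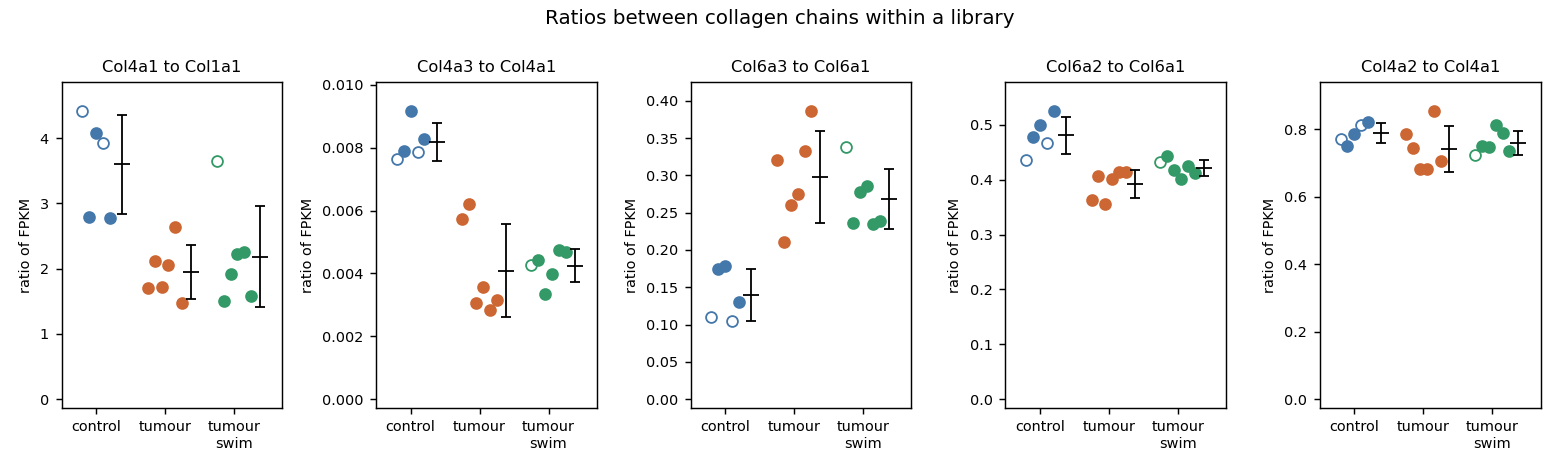
Ratio of FPKM between 2 collagen genes of the same library, by group, for 5 pairs. Open symbols are control 1, control 4 and tumour_swim 1, and bars beside the points give the mean ± SD. Col4a1 to Col1a1, Col4a3 to Col4a1 and Col6a2 to Col6a1 lie higher in control than in tumour without overlap, Col6a3 to Col6a1 lies lower, and Col4a2 to Col4a1 stays between 0.681 and 0.854.

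Summed by class, type IV genes gave 43.4 ± 4.35% of all collagen FPKM in control (SD, n = 5), 33.9 ± 4.17% in tumour (n = 6) and 35.1 ± 3.34% in tumour_swim (n = 6). Fibrillar genes gave 30.4 ± 2.93%, 38.9 ± 3.72% and 38.5 ± 3.97%. The type IV share was 38.3 to 49.7% in control and 28.6 to 41.2% in tumour, and the fibrillar share was 25.6 to 33.0% and 32.6 to 43.7%, and of the tumour hearts only tumour 5 reached the control range for either share. In tumour_swim the type IV share was 30.1 to 39.7%, with tumour_swim 4 inside the control range, and the fibrillar share was 33.6 to 43.4%, above every control. Controls 2, 3 and 5 alone held 45.4, 49.7 and 42.4% type IV and 29.8, 25.6 and 32.1% fibrillar. Beaded filament genes differed little between groups, at 14.5 ± 1.12%, 14 ± 1.02% and 13.7 ± 0.679%. The summed level of all 44 genes ran from 49.4 FPKM in tumour_swim 1 to 581 FPKM in tumour 6.

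**Figure D5:**
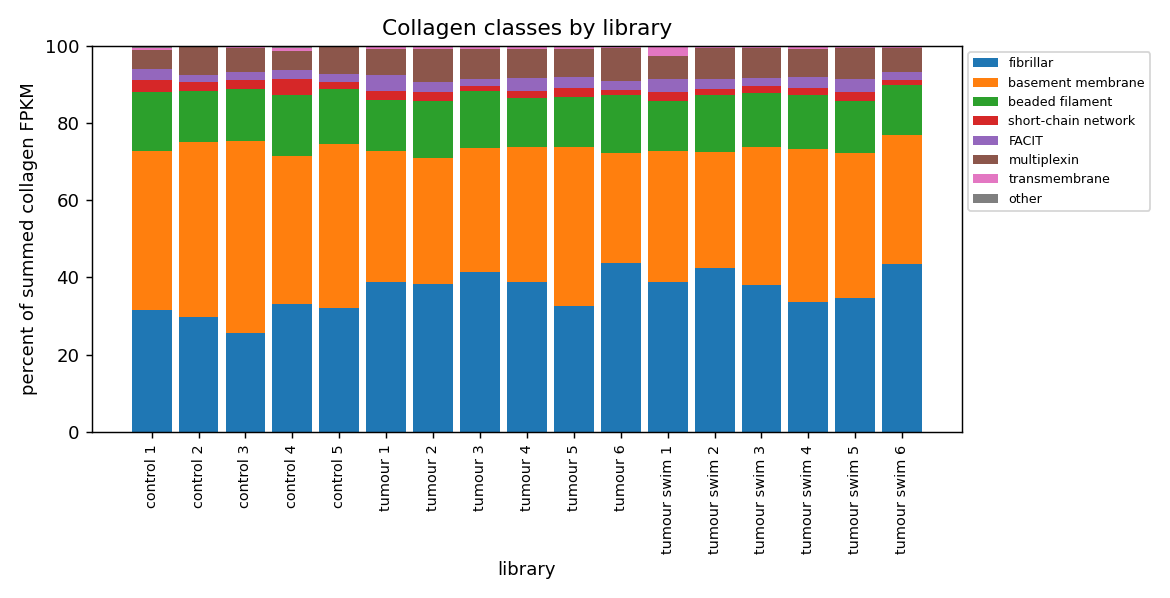
Share of each collagen class in the summed FPKM of the 44 collagen genes (percent, stacked bars from 0) in each library. Type IV genes take 38.3 to 49.7% in the 5 controls and 28.6 to 41.2% in the 6 tumour hearts, and fibrillar genes take a greater share than type IV genes in most tumour-bearing libraries but in no control.

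Whether swimming changed collagen expression in tumour-bearing hearts is the question of the tumour_swim against tumour comparison. No collagen gene differed, and limma called none of the 13709 tested genes in either direction (0%), with 554 genes at an unadjusted p under 0.05 of which none was a collagen gene. The members' log2 fold changes ran from -0.33 to 0.11, with adjusted p of 0.957 to 0.989. Of the 25, 5 had a value above 0, beside 31.8% of all genes. In the fit without the 3 libraries 23 of 26 did, beside 60.5% of all genes, with a median of 0.15 beside 0.04 and a greatest value of 0.41. Leaving out tumour_swim 1 alone gave the same 23 of 26 and the same median of 0.15, so the order of the groups depended on that library. In the fit without the 3 libraries 1 gene of the table was called (0.00725%), which was no collagen gene. No member had non-overlapping groups, where 0.146% of all genes were higher and 0.226% lower without overlap with all libraries and 0.853% and 0.292% without the 3. Library weights called 0.233% of genes higher and 0.0948% lower, and no member.

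Tumour_swim against control shares its control libraries with the tumour comparison, so its values are not independent of those above. No collagen gene passed, where 0.554% of all genes were higher and 0.35% lower (0.905% in either direction). At an unadjusted p under 0.05 in limma there were 3 members higher, beside 1694 of all 13709 genes in either direction. No member had non-overlapping groups (0.715% of all genes higher and 0.868% lower). Median-of-ratios scaling called 184 genes higher (1.35%) and 186 lower (1.36%) in place of 76 and 48, with Col23a1 among the higher. The smallest limma adjusted p was 0.142, for Col23a1 (log2 fold change 0.42 ± 0.13, SE), whose adjusted p over all alternatives ran from 0.0242 to 0.332. Col6a3 had 0.82 ± 0.44, Col3a1 0.71 ± 0.50 and Col6a5 0.52 ± 0.23 on the log2 scale, none past the test.

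In the 14 other libraries Col4a3 fell by 0.46 ± 0.08 on the log2 scale in tumour_swim against control (limma adjusted p = 0.00782), where 1.9% of all genes were higher and 0.652% lower. Col4a4 was at -0.54 ± 0.15 (adjusted p = 0.0684) in that fit, and fell by 0.52 ± 0.13 with the length trend removed in all 17 libraries (adjusted p = 0.0257), where 2.09% of genes were higher and 1.64% lower. With both changes 2 members were lower (1.83% of all genes). Over all alternatives the adjusted p ran from 0.00595 to 0.727 for Col4a3 and from 0.00815 to 0.776 for Col4a4. Col4a2, Col4a3 and Col4a4 lay lower without overlap (3.11% of all genes) and Col13a1, Col27a1 and Col6a3 higher (10.5%) in the 3 remaining controls against 5 tumour_swim hearts. Leaving out tumour_swim 1 alone put Col23a1, Col27a1, Col6a3 and Col6a6 past the threshold as higher, where 13.4% of all genes were higher and 2.65% lower.

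The other genes of collagen turnover were taken from 5 lists of chain modification, cross-linking, breakdown, fibril binding and receptors. Of 11 tested genes of collagen breakdown 6 rose in tumour against control and none fell, where 5.14% of all genes were higher and 3.33% lower: Mmp3, Mmp2, Mmp14, Mmp8, Mmp9 and Ctsk. Mmp3, a metalloproteinase that cleaves matrix proteins and activates other metalloproteinases, had a mean of 2.2 ± 1.2 FPKM (SD) in the 5 controls and 24.9 ± 8.03 in the 6 tumour hearts, and rose by 3.04 ± 0.27 on the log2 scale (SE, adjusted p = 4.99e-06 in limma). Mmp2, a gelatinase that degrades type IV collagen, rose with means of 30.7 ± 13.4 and 93.8 ± 34.8 FPKM (1.62 ± 0.43, adjusted p = 0.0270). Mmp8, the neutrophil collagenase, rose by 0.71 ± 0.16 on the log2 scale, and Mmp9, another gelatinase, by 0.89 ± 0.25. The list's median log2 fold change was 1.06, beside 0.14 for all genes. Leaving out the 3 libraries, 6 rose again (7.12% of all genes), with Timp1, an inhibitor of metalloproteinases, in place of Mmp9.

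Of 5 cross-linking genes only Lox passed (5.14% of all genes higher), the lysyl oxidase that oxidises lysines of fibrillar collagen, which had means of 0.778 ± 0.370 FPKM in control and 3.77 ± 1.30 in tumour and rose by 1.40 ± 0.31 (SE, log2, adjusted p = 0.0109 in limma). It also rose without the 3 libraries (1.18 ± 0.21, adjusted p = 0.00278). Of 26 tested genes of chain modification, processing and secretion 2 rose and 1 fell, a share near the 8.47% of all genes called in either direction. Serpinh1, the collagen chaperone HSP47, fell by 1.03 ± 0.28 on the log2 scale (adjusted p = 0.0311), with means of 98.1 ± 31.5 FPKM in control and 46.7 ± 13.1 in tumour, and fell by 1.32 ± 0.20 without the 3 libraries. Adamts14, a procollagen N-proteinase, and Tmem38b, an endoplasmic reticulum ion channel whose loss impairs collagen synthesis, rose (0.50 ± 0.13 and 0.85 ± 0.16). In the 14 other libraries, where 7.12% of all genes were higher and 5.42% lower, the prolyl hydroxylase subunits P4ha1 (-0.99 ± 0.18, adjusted p = 0.00327) and P4ha2 (-0.44 ± 0.13, adjusted p = 0.0400) also fell, and Mia3, which exports procollagen, rose.

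Of 10 tested matrix proteins that bind fibrils, 3 rose (5.14% of all genes), Dcn, Dpt and Lum, which encode the proteoglycans decorin and lumican and the small protein dermatopontin. Dcn went from 142 ± 14.5 to 297 ± 61.9 FPKM (log2 fold change 1.04 ± 0.22, limma adjusted p = 0.00898). In the 14 other libraries these 3 rose (7.12% of all genes) and Sparc and Fmod fell (5.42%). None of 4 tested collagen receptors passed, and the smallest p was that of Ddr2 (1.05 ± 0.37, adjusted p = 0.0829). Without the 3 libraries the integrin gene Itga11 fell by 0.43 ± 0.11 (adjusted p = 0.0234), 1 of 5 tested receptors where 5.42% of all genes fell. In tumour_swim against tumour no gene of the 5 lists passed, and in tumour_swim against control Mmp3 alone did (2.61 ± 0.27, adjusted p = 6.99e-05), where 0.554% of all genes were higher. With the 3 libraries left out, Mmp2, Timp1, Lox, Tmem38b, Dcn and Dpt also rose in tumour_swim against control, where 1.9% of all genes were higher and 0.652% lower.

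Markers of the cells that make collagen differed between the groups, and their part in the collagen results was not tested. Fibroblast markers rose in tumour against control for 5 of 6 genes (Dcn, Dpt, Lum, Pdgfra and Tcf21), where 5.14% of all genes were higher, and summed to 616 to 1038 FPKM in control, 1144 to 1815 in tumour and 483 to 1588 in tumour_swim. By group means, most of this sum was Gsn, the member not called, at 553 ± 171 FPKM (SD) in control and 821 ± 180 in tumour. Dcn, Dpt and Lum are the same genes that rose among the fibril-binding proteins above. Markers of activated fibroblasts summed to 147 to 334 FPKM in control, 28.9 to 62.9 in tumour and 36.9 to 204 in tumour_swim. Nearly all of that sum was Acta2, which smooth muscle also expresses, at 196.6 ± 73.9 FPKM (SD) in control and 38.5 ± 11.7 in tumour. Acta2 fell by 2.31 ± 0.41 on the log2 scale and was the only one of 4 tested members to pass, where 3.33% of all genes were lower. Of the other tested members, Postn had means of 6.86 ± 2.86 FPKM (SD) in control and 3.24 ± 1.14 in tumour. Comp had means of 0.577 ± 0.360 and 1.24 ± 0.926 FPKM, and Fap had a log2 fold change of 0.25 ± 0.11 (limma adjusted p = 0.144). The list's median log2 fold change was -0.30. Endothelial markers summed to 60.8 to 182, 107 to 172 and 34.8 to 160 FPKM, with none of 5 called, and without the 3 libraries Kdr fell by 0.70 ± 0.21, where 5.42% of all genes were lower. Smooth muscle and pericyte markers summed to 304 to 594, 258 to 345 and 86.0 to 457 FPKM. Acta2, which is also in this list, was the only one of 5 tested members called in tumour against control. Rgs5, Myh11 and Pdgfrb had higher means in tumour than in control and Kcnj8 a lower one, and the list's median log2 fold change was 0.19.

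Cardiomyocyte markers were the most abundant of all lists, at 7415 to 10385, 6649 to 8186 and 5427 to 9106 FPKM. Of the 5 tested, 1 fell, Actc1 (by 1.00 ± 0.22, where 3.33% of all genes were lower), and the list's median log2 fold change was 0.05. Myh6 was at 2112 ± 1075 FPKM (SD) in control and 3198 ± 444.3 in tumour and did not pass (limma adjusted p = 0.187). Of 4 leukocyte markers Csf1r, Itgam and Ptprc rose (5.14% of all genes), with sums of 12.5 to 18.9, 18.6 to 37.1 and 7.35 to 35.1 FPKM. Cnmd rose among 2 tested markers of cartilage and valve, with sums of 1.22 to 3.13, 4.65 to 17.8 and 1.84 to 12.6 FPKM, and Schwann cell markers summed to no more than 4.67 FPKM. Mesothelial markers summed to 0.814 to 6.91, 1.1 to 2.89 and 1.29 to 5.30 FPKM, with none called, and Upk3b and Wt1 fell without the 3 libraries. No marker was at 0 in all libraries.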

How the data were processed

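Total RNA of mouse heart was sequenced in 17 libraries of the NEBNext Ultra RNA kit, per the labels' protocols. Build mm10, fastp, FastQC and bcl2fastq appear in the submitters' processing notes, while no source used here gives the aligner, annotation or strand setting. The authors deposited 1 table of FPKM for 28640 genes. That unit was read from the values: 98.7 to 99.1% of values below 20 reads lay within 0.1 of a whole read once divided by the step of 1 read, computed with GENCODE M21 merged exon lengths (28268 IDs matched). The floor of 3 reads covers counting error only, while the 95% interval comes from limma and rests on the spread between libraries. Since the table's positions differ from GRCm38, positions are those of GENCODE M21 by gene ID.

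Log2(FPKM + 1) was fitted with limma 3.58.1 (R 4.3.3, trend on) for all groups together, leaving 14 residual degrees of freedom, with Benjamini-Hochberg adjustment over all tested genes. Fold changes on this scale understate those of low genes. The script was tested on simulated data. A single ratio was compared with an exact permutation test (scipy 1.17.1). The length trend was removed per library by lowess (span 0.3). Alternatives covered the pseudocount (0.1), the limit (none or 1 FPKM), scaling, spread, transcript length, library weights, replicate numbers and left-out libraries. The members and lists were chosen with earlier results of these data known. Values in every library were given for 14 set collagen genes and for any other past the threshold. From each list up to 4 members past the threshold, by smallest p, have values, or otherwise the one with the smallest p. No library was a duplicate: chi-square over its degrees of freedom was at least 11.5 in the 40 within-group pairs.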

Additional observations from a re-analysis of the deposited data

Results flagged for a closer look

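Of 102 group values examined, 18 held a library far from the rest of its group. Chance alone gives about 1 in 20 groups, but only for independent values. Most of the 18 came from the same library, so their number cannot be set against that rate. In 16 of the 18 tumour_swim 1 was the lowest of its group. Its level was 2.42 FPKM for Col1a1, 3.92 for Col1a2, 0.990 for Col5a1 and 1.04 for Col5a2 among the fibrillar genes. It was 8.82 FPKM for Col4a1, 6.38 for Col4a2, 0.0376 for Col4a3 and 1.48 for Col4a5 among the type IV genes, and 3.29 for Col6a1, 1.42 for Col6a2 and 1.11 for Col6a3 among the type VI genes. It was also 0.716 FPKM for Col14a1, 2.25 for Col15a1, 0.589 for Col16a1 and 0.715 for Col18a1. The ratio of Col1a1 to Col3a1 in this library was 0.235, the lowest of its group, and that of Col1a2 to Col1a1 was 1.62, the highest. In the tumour group, tumour 6 stood above the others for Col27a1, at 1.22 FPKM. In tumour_swim 1, 45.8% of reads came from mitochondrial genes, beside 16.8 to 30.6% in the other 16 libraries, where control 4 (30.6%), tumour 1 (29.5%), tumour 2 (26.8%), control 1 (26.0%) and control 3 (25.95%) were highest. The part of this in the collagen values was not tested.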

How the results depend on the processing

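The calls of collagen genes rest on a few libraries and on how transcript length is treated. In tumour against control, the 2 genes higher became 1 with a limit of 1 FPKM, with the replicate block or with library weights, and 0 with the length trend removed, alone or with the replicate block, and without the 3 libraries low in long transcripts. They became 1 without those 3 and with the length trend removed, an alternative chosen after seeing the data. Leaving out 1 library gave 0 to 5. The 0 genes lower became 2 with quantile normalization, with library weights, with the length trend removed, alone or with the replicate block, 3 without the 3 libraries and 6 without them and with the trend removed, while leaving out 1 library gave 0 in every case. In tumour_swim against control, the 0 higher became 1 with median-of-ratios scaling and 0 to 4 on leaving out 1 library. The 0 lower became 1 with the length trend removed and without the 3 libraries, and 2 with both. In tumour_swim against tumour no collagen gene passed under any alternative, while library weights called 32 genes of the table higher and 13 lower. The log2 ratio of Col1a1 to Col3a1 turned to -0.29, 0.14 and -0.15 without the 3 libraries, and leaving out 1 library gave -0.052 to 0.27 for tumour against control, -0.12 to 0.14 for tumour_swim against tumour and -0.10 to 0.25 for tumour_swim against control.

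Signs of the log2 fold change in tumour against control that turned, over the 25 tested genes, were as follows. With library weights, Col6a1 was -0.0025, Col6a2 -0.31, Col4a1 -0.23 and Col4a2 -0.33. Median-of-ratios scaling put Col6a2 at -0.13 and Col4a2 at -0.050, and quantile normalization put Col6a2 at -0.093. With the length trend removed, Col6a2 was -0.25, Col27a1 -0.038, Col4a1 -0.030 and Col4a2 -0.098, and with the replicate block as well they were -0.34, -0.063, -0.11 and -0.16. The replicate block alone put Col6a2 at -0.067. Without the 3 libraries, Col5a1 was -0.027, Col6a1 -0.35, Col6a2 -0.66, Col15a1 -0.014, Col4a1 -0.67 and Col4a2 -0.76, and with the length trend removed as well they were -0.088, -0.38, -0.72, -0.058, -0.73 and -0.80, with Col1a1 at -0.0086. Leaving out 1 library gave -0.039 to 0.58 for Col6a1, -0.32 to 0.30 for Col6a2, -0.25 to 0.54 for Col4a1 and -0.33 to 0.43 for Col4a2. Of the genes near 0 with all libraries, Col4a5, Col8a1 and Col18a1 turned to -0.085, -0.073 and -0.051 under median-of-ratios scaling, -0.10, -0.089 and -0.11 after quantile normalization, and -0.17, -0.19 and -0.21 with the length trend removed. They were -0.16, -0.19 and -0.24 with the replicate block as well, -0.19, -0.15 and -0.23 with library weights, -0.44, -0.35 and -0.46 without the 3 libraries, and -0.49, -0.40 and -0.51 without them and with the trend removed. Leaving out 1 library gave -0.21 to 0.28, -0.14 to 0.29 and -0.19 to 0.20. Col28a1 was -0.038 with quantile normalization, -0.083 with the length trend removed, -0.043 with the replicate block as well and -0.021 without the 3 libraries and with the trend removed. Col5a3 was 0.16 with a pseudocount of 0.1, and leaving out 1 library gave -0.35 to 0.29. Of the single-gene values under alternatives, 769 kept direction and side of the threshold, 22 crossed it to a call, 21 lost a call and 75 turned sign. The cause was not tested.

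Whether libraries of the same number are paired is not settled by the data. Deviations correlated at over 0.1 in 2 of 5, 3 of 6 and 3 of 5 same-numbered pairs of the 3 comparisons. In tumour_swim against control they ran from -0.67 to 0.68, the latter for control 1 and tumour_swim 1, both low in long transcripts. The labels state no pairing, so the replicate block (473 genes higher and 388 lower in tumour against control, 48 and 36 in tumour_swim against control) is given here only. Depth limits the low genes, where a control holds as few as 0 reads of Col17a1 and 4 of Col6a5.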
